A study of Rattus norvegicus with 20 samples.

Results

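The 10 rat genes described here encode the muscarinic acetylcholine receptors and the proteins that make, move and break down acetylcholine. They were chosen by the gene name printed for each probe of the array, which gave 11 probes, 1 spot each, for Chrm1, Chrm2, Chrm3, Chrm4, Chrm5, Chat, Slc5a7, Slc18a3, Ache and Bche, out of 25926 gene names on the array. Chrm2 had 2 probes and every other gene had 1. Signals came from the hypothalamic arcuate nucleus (ARC) of 20 female Sprague-Dawley rats aged 15 postnatal days, 4 in each of 5 conditions, on 11 two-colour arrays (Cy3 and Cy5) that took up 6 slides. SNS rats were born to dams given saline, had no spasms and were given saline after birth. BNS rats were born to dams given 2 injections of betamethasone, a synthetic glucocorticoid, at 0.4 mg/kg on gestational day 15, and were otherwise like SNS. BYS, BYA and BYP rats had the same prenatal betamethasone and then spasms triggered by NMDA on postnatal days 12, 13 and 15, and they received saline (BYS), the hormone ACTH (BYA) or PMX53, a blocker of the complement receptor C5ar1 (BYP), on postnatal days 13, 14 and 15 per the labels. The study's methods start these treatments earlier than the labels do, and the difference could not be settled here. Betamethasone is therefore shared by every group but SNS, and the rats with NMDA spasms here all carried it. The spasms are a model that NMDA provokes in a primed rat, and bulk ARC tissue cannot tell fewer cells of a type from less RNA per cell.

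Acetylcholine is made from choline and acetyl-CoA by choline acetyltransferase (Chat), loaded into vesicles by the vesicular transporter (Slc18a3), and released. Acetylcholinesterase (Ache) then splits it, and the high-affinity transporter (Slc5a7) returns the choline to the nerve ending, while butyrylcholinesterase (Bche) is a second esterase made in good part by glia and the liver. Of the muscarinic receptors, the products of Chrm1, Chrm3 and Chrm5 couple to Gq and phospholipase C, and those of Chrm2 and Chrm4 couple to Gi and lower cyclic AMP. In the ARC, neurons of several peptide classes receive cholinergic input, and a small number of cells there can make acetylcholine themselves.

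The probe sequences are shown for both esterases, because Bche carries the difference found between conditions and Ache is the other esterase, for Slc18a3, whose differences lay just beyond the threshold, and for Chrm2, whose 2 probes were detected unequally. The lines below run 5′ to 3′ as the array design gives them. Capitals in the 2 esterase probes mark the 27 bases that are identical when they are laid side by side without gaps over 43 bases, and the lower-case letters in those 43 bases differ.
Ache: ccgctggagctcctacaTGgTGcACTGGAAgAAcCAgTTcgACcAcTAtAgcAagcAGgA
Bche: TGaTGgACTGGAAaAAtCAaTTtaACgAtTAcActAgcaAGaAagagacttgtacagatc
Slc18a3: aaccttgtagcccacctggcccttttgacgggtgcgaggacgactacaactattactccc
Chrm2, 5′ probe: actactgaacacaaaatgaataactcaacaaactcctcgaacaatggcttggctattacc
Chrm2, 3′ probe: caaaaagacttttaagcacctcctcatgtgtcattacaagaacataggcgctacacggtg

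In the rn4 coordinates that the array design carries, the Bche probe lay at chr2:164329618-164329677 on the minus strand and the Slc18a3 probe at chr16:7970157-7970216 on the minus strand. The Chrm2 probes lay at chr4:63915250-63915309 and chr4:63916605-63916664 on the plus strand, starting at bases 436 and 1791 of the transcript. The Ache probe carried no coordinates and started at base 1766 of its transcript, and the Bche probe started at base 1813. In the RefSeq gene table for the GRCr8 assembly, the Slc18a3 gene lies within the span of the Chat gene. Each probe was designed on a transcript of its gene and so lies in exons, and no annotation of the rn4 build was used here.

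The share of spots well above background ranged from 51.5% to 84.5% over the 20 samples, and the ratio of median signal to median background had a group median of 16.0 in both BNS and BYS but of 6.94 for SNS, 7.43 for BYA and 9.06 for BYP. No slide held more than 1 condition, and only BYA used a further slide, for BYA 3, so slide and condition cannot be told apart. The arrays of BYA 3 and BYA 4 each also held a sample of another series. The dye label of BYA 3 goes against the sample order in its raw file name. Because of that label, the BYA differences of the genes described here that were tested were also computed without BYA 3. For the other genes, and for correlations over the samples, no result without BYA 3 is given. All 12 genes listed as markers of ARC neurons were tested, and the mean of their log2 levels ran from 11.6 to 12.3 over the samples. Of these markers 0 were called higher and 1 lower than SNS in BNS, 0 and 2 in BYS, 1 and 0 in BYA, and 0 and 0 in BYP. Their median log2 difference from SNS was -0.20 in BYS. Of all genes, 27.1% to 31.3% were called against SNS. Of 8 pituitary markers, 5 failed the filter on dim probes, Prl and Gh1 among them, while Lhb and Tbx19 were well above background in 20 samples and Cga in 15, and 0 of these 3 were called against SNS.

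A gene was tested if some condition had signal well above background in each of its 4 samples, and 6 genes, Chrm3, Chrm4, Slc5a7, Slc18a3, Ache and Bche, passed this filter. Chrm3, Chrm4, Slc18a3 and Ache were well above background in 20 of 20 samples, Slc5a7 in 18 and Bche in 13. The probes of the other 4 genes did not pass in any condition. Chrm1 was well above background in 1 BNS sample and Chrm5 in 1 BYS sample. Chat, the enzyme that defines cholinergic neurons, was well above background in 7 samples (2 BNS, 3 BYS and 2 BYP) and in no SNS or BYA sample. The 5′ probe of Chrm2 was well above background in 0 samples and its 3′ probe in 8 (1 SNS, 2 BNS, 3 BYS, 1 BYA and 1 BYP). Apart from BYS 3, a Cy3 channel, all samples in which any of these 4 genes was well above background were Cy5 channels. Chat was so marked in BNS 2 (Cy5) at 2.44 times its local background but not in BNS 3 (Cy3) at 7.03 times. These counts therefore depend on the dye and are not read as differences between conditions.

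**Figure D1:**
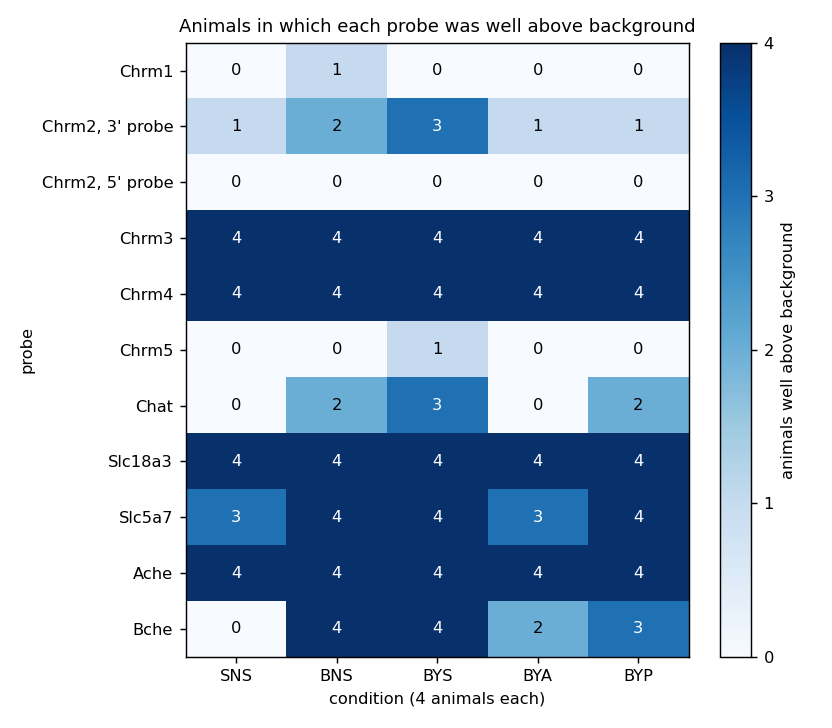
Number of animals, of 4 in each condition (columns), in which each of the 11 probes (rows) was well above background by the scanner software's flag. The rows of Chrm3, Chrm4, Slc18a3 and Ache are dark throughout, the Bche row runs from 0 in SNS to 4 in BNS and BYS, and the Chrm1, Chrm5 and 5′ Chrm2 rows are pale throughout.

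The raw signals of the dim genes, as ratios to local background, overlapped those of Bche, which ran from 2.01 to 8.56. The Chrm1 spot was between 1.57 and 5.36 times its local background over the 20 samples, the Chrm5 spot between 1.57 and 4.76 times, and the Chat spot between 1.64 and 7.03 times. The 5′ Chrm2 spot was between 1.24 and 5.32 times background and the 3′ spot between 1.52 and 6.79 times. These ratios do not separate the dim genes from Bche, which was marked well above background at a ratio of 3.14 in BYA 4 (Cy5). Because the probes of the dim genes failed the filter, their levels are taken as bounds. No difference between conditions was tested for them in the main fit. Differences that appeared when the filter was dropped are given at the end only to show the dependence on the processing. Levels below are log2 values after background correction and quantile normalization, which makes the distribution of the 20 samples equal, and they are compared between conditions for 1 probe at a time.

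Over the 5 conditions, limma's F test with Benjamini-Hochberg adjustment over 17083 genes called 1 of the 6 tested members, Bche (adjusted p = 0.000313), against 30.3% of all genes. The other adjusted p-values of the F test were 0.123 for Slc18a3, 0.128 for Slc5a7, 0.151 for Ache, 0.245 for Chrm3 and 0.455 for Chrm4. Against SNS, 1 of 6 members was called in each group, and it was Bche each time. The share of all genes called was 28.6% for BNS, 27.1% for BYS, 31.3% for BYA and 28.9% for BYP, so 1 of 6 is no more than the share of all genes. The median log2 difference of the 6 members was -0.31 for BNS, 0.00 for BYS, -0.13 for BYA and -0.34 for BYP, beside medians over all genes of -0.04, -0.03, -0.04 and -0.04.

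**Figure D2:**
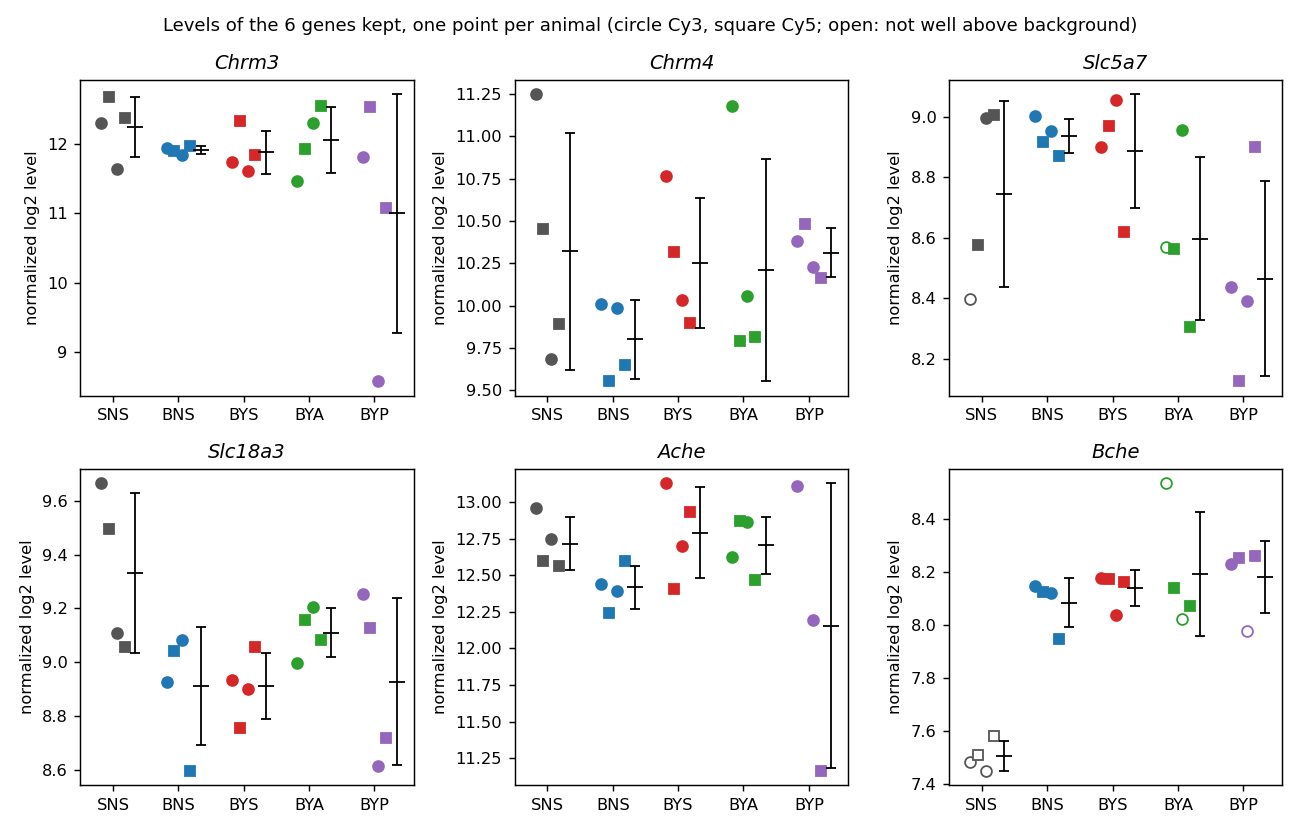
Normalized log2 level (vertical axis, a scale of its own for each gene) of the 6 genes that passed the filter, with 1 point per animal, circles for Cy3 and squares for Cy5, and open points where the spot was not well above background. Black bars are the mean and SD of each condition. The 4 SNS points of Bche lie between 7.45 and 7.58, below every other point of that gene, and Chrm3 and Ache each have low points in BYP.

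Chrm3, the Gq-coupled M3 receptor, had log2 levels of 12.30, 12.67, 11.64 and 12.37 in SNS 1 to 4 and of 11.95, 11.89, 11.84 and 11.97 in BNS 1 to 4. In BYS 1 to 4 it was at 11.73, 12.32, 11.61 and 11.85, and in BYA 1 to 4 at 11.46, 11.92, 12.30 and 12.54. In BYP 1 to 4 it was at 11.81, 12.53, 8.58 and 11.07. The first 4 conditions overlapped one another, and BYP 3 and BYP 4, the 2 channels of 1 array, lay below the other 18 samples, whose lowest level was 11.46. The Chrm3 difference of BYP from SNS was -1.25 log2 units (SE 0.493, n = 4 and 4, limma adjusted p = 0.0651) and that from BYA was -1.06 (adjusted p = 0.355). Leaving out BYP 3 and BYP 4 together, a choice made after their levels were seen, gave a difference of -0.07 from SNS (limma adjusted p = 0.867) and of 0.12 from BYA (adjusted p = 0.886). Without BYP 3 alone the difference from SNS was -0.49 (adjusted p = 0.222), and without BYP 1 or BYP 2 it was -1.64 or -1.69 (adjusted p = 0.0228 and 0.0176). Median scaling gave -1.62 from SNS (adjusted p = 0.0199). In the fit Chrm3 also read 0.59 log2 units higher in Cy5 than in Cy3, the largest dye term of the 6 genes in either direction, and each condition holds 2 samples of each dye.

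Chrm4, the Gi-coupled M4 receptor, differed more between animals than between conditions. Its log2 levels were 11.25, 10.46, 9.69 and 9.89 in SNS 1 to 4, 10.01, 9.56, 9.98 and 9.65 in BNS 1 to 4, and 10.77, 10.32, 10.04 and 9.90 in BYS 1 to 4. BYA 1 to 4 read 11.18, 9.79, 10.05 and 9.82, and BYP 1 to 4 read 10.38, 10.48, 10.23 and 10.16. SNS 1 and BYA 1 stood above the rest, and the 4 BYP samples all lay above the 4 BNS samples, which happened in this direction for 6.33% of all genes. No comparison of Chrm4 was called, and the BYP difference from BNS was 0.51 (SE 0.284, limma adjusted p = 0.359). BNS was 0.52 lower than SNS (adjusted p = 0.174), and without SNS 3 it was 0.81 lower (adjusted p = 0.0309). Across the 20 samples, with the dye term removed, Chrm4 followed the mean level of 7 oligodendrocyte markers (Pearson r = 0.740, Spearman's rho = 0.734) and ran opposite to the mean of the 3 cortical and hippocampal markers tested (r = -0.707, rho = -0.824). Both relations were picked after the values were seen. The oligodendrocyte mean ran from 9.15 to 10.96 within SNS. The 6 striatal and basal forebrain markers tested, regions where Chrm4 is abundant, kept a mean between 9.88 and 10.25 over all samples. The part of either marker list in the Chrm4 levels was not tested.

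Slc18a3, the transporter that fills synaptic vesicles with acetylcholine, had log2 levels of 9.66, 9.50, 9.11 and 9.06 in SNS 1 to 4. BNS 1 to 4 read 8.93, 9.04, 9.08 and 8.60, and BYS 1 to 4 read 8.93, 8.76, 8.90 and 9.06. BYA 1 to 4 read 8.996, 9.16, 9.21 and 9.08, and BYP 1 to 4 read 9.25, 9.13, 8.61 and 8.72. SNS 1 and SNS 2 were the highest of the 20 samples, and the 4 BYS samples lay just below the 4 SNS samples, a separation seen in that direction in 13.7% of all genes. The differences from SNS were -0.42 in BNS (SE 0.156, limma adjusted p = 0.0516), -0.42 in BYS (adjusted p = 0.0535), -0.40 in BYP (adjusted p = 0.0594) and -0.22 in BYA (adjusted p = 0.293), so none was called. Without SNS 1 the BNS difference was -0.31 (adjusted p = 0.168), and without SNS 3 or SNS 4 it was -0.51 (adjusted p = 0.0313 and 0.0318). Leaving out each of the 20 samples in turn put the adjusted p below 0.05 in 5 fits for BNS, 6 for BYS, 4 for BYP and 0 for BYA. These differences share the SNS samples. Among the 4 groups given betamethasone, Slc18a3 differed by between 0.00 and 0.20 log2 units, with standard errors of 0.156.

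Slc5a7, the high-affinity choline transporter, is thought to set the pace of acetylcholine synthesis. Its log2 levels were 8.40, 8.58, 8.998 and 9.01 in SNS 1 to 4, 9.003, 8.92, 8.95 and 8.87 in BNS 1 to 4, and 8.90, 8.97, 9.06 and 8.62 in BYS 1 to 4. BYA 1 to 4 read 8.57, 8.56, 8.96 and 8.30, and BYP 1 to 4 read 8.44, 8.13, 8.39 and 8.90. SNS 1 and BYA 1 were not well above background. BNS was the tightest group, 3 of the 4 BYP samples lay below every BNS and BYS sample, and BYP 4 lay within both groups. The BYP differences were -0.47 from BNS (SE 0.168, limma adjusted p = 0.154) and -0.42 from BYS (adjusted p = 0.493), and neither was called. Without BYP 4 the difference from BNS was -0.64 (adjusted p = 0.0482) and the difference from SNS, -0.28 with all samples (adjusted p = 0.217), was -0.45 (adjusted p = 0.0428). Across samples Slc5a7 followed the mean of the 3 cortical and hippocampal markers tested (Pearson r = 0.777, Spearman's rho = 0.752), again a relation picked after its value was seen. That mean stayed between 8.12 and 8.50 over all samples, and 3 of the 6 markers listed failed the filter.

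Ache, which ends cholinergic transmission by splitting acetylcholine, had log2 levels of 12.96, 12.60, 12.75 and 12.56 in SNS 1 to 4, 12.44, 12.24, 12.39 and 12.60 in BNS 1 to 4, and 13.13, 12.41, 12.70 and 12.93 in BYS 1 to 4. BYA 1 to 4 read 12.63, 12.87, 12.86 and 12.47. BYP 1, BYP 3 and BYP 4 read 13.11, 12.19 and 11.17, and BYP 2 has no value because its spot was marked as an outlier. The SNS, BNS, BYS and BYA samples overlapped, and the 2 channels of the array of BYP 3 and BYP 4 again gave the lowest levels. The BYP differences, fitted on 3 BYP samples, were -0.69 from BYS (SE 0.258, limma adjusted p = 0.465), -0.62 from SNS (adjusted p = 0.0803) and -0.61 from BYA (adjusted p = 0.310). Without BYP 3 and BYP 4, when BYP 1 alone gives the BYP level and is assumed to vary like the other groups, the same differences were 0.24, 0.32 and 0.33 (adjusted p = 0.794, 0.320 and 0.552), opposite in sign. Without BYP 1 they were -1.11 (adjusted p = 0.0400), -1.04 (adjusted p = 0.00191) and -1.03 (adjusted p = 0.0489). Median scaling gave -1.31 from BYS (limma adjusted p = 0.0459) and -1.23 from SNS (adjusted p = 0.0102). That scaling called 2820 of all genes for BYP against BYS, beside 6 in the main fit. In BYS, Ache was 0.37 above BNS (SE 0.247, adjusted p = 0.863).

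The 2 low samples were set beside the rest of the array. In 249 of 16789 genes with values in both (1.48%), BYP 3 and BYP 4 lay below all 18 other samples or those of them with a value, and Chrm3 and Ache (17 others) were among them. In 42 genes (0.25%), Chrm3 and Ache included, at least one of them lay 1 log2 unit or more below the lowest of the others. The genes whose levels over the samples were most like Chrm3 were Nrg1, which encodes a growth factor of the neuregulin family (Pearson r = 0.965), and Smyd2, a lysine methyltransferase (r = 0.955). Those most like Ache were Syp, the synaptic vesicle protein synaptophysin (r = 0.963, n = 19), and Selenow, a selenoprotein (r = 0.933). These correlations were computed with the dye term removed, while the levels that follow keep it. Smyd2 read 7.41 in BYP 3 and 9.46 in BYP 4 against 10.34 to 11.39 in the other 18 samples. Syp read 13.46 in BYP 4 against 14.09 to 15.02 in the other 19. The part of that array in these low levels was not tested beyond leaving it out.

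**Figure D3:**
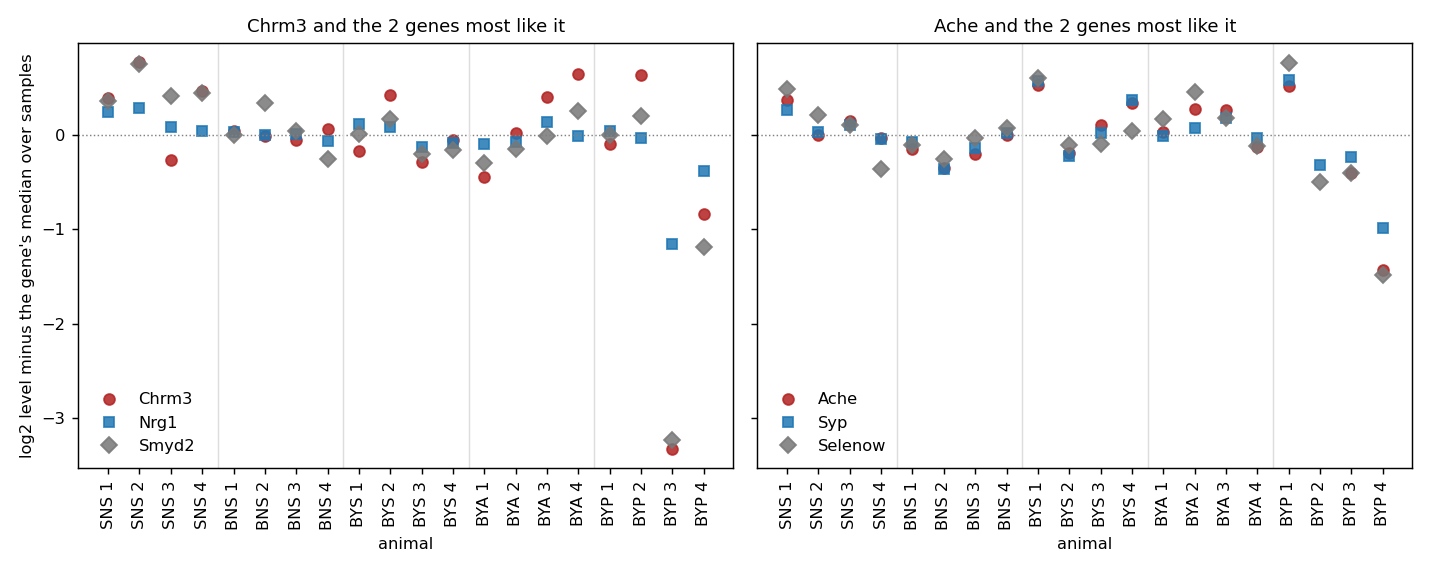
Log2 level of each gene minus its own median over the samples (vertical axis) in each of the 20 animals (horizontal axis), for Chrm3 with Nrg1 and Smyd2 (left) and for Ache with Syp and Selenow (right). BYP 3 is the lowest point for the left-hand genes and BYP 4 for the right-hand genes, and these 2 animals shared 1 array.

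Bche encodes the esterase that hydrolyses a wider range of choline esters than Ache does. Its log2 levels were 7.48, 7.51, 7.45 and 7.58 in SNS 1 to 4, none of them well above background. BNS 1 to 4 read 8.15, 8.13, 8.12 and 7.95, and BYS 1 to 4 read 8.18, 8.18, 8.04 and 8.16, all well above background. BYA 1 to 4 read 8.54, 8.14, 8.02 and 8.07, with BYA 2 and BYA 4 well above background, and BYP 1 to 4 read 8.23, 8.25, 7.98 and 8.26, with all but BYP 3 well above. BYA 2 and BYA 4 were Cy5 channels, while BYA 1, BYA 3 and BYP 3 were Cy3 channels. All 16 samples given betamethasone lay above all 4 SNS samples, and the 4 groups given betamethasone overlapped one another. Groups that do not overlap in that direction were seen in 16.1% of genes for BNS against SNS, 14.0% for BYS, 14.5% for BYA and 14.0% for BYP.

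Bche rose against SNS in each of the 4 groups, relative to the other genes of the array. The log2 difference was 0.58 in BNS (SE 0.105, limma adjusted p = 0.000615), 0.64 in BYS (adjusted p = 0.000275), 0.69 in BYA (adjusted p = 0.000111) and 0.68 in BYP (adjusted p = 0.000147). Because SNS gave only an upper bound, the fold estimates under quantile normalization, 1.496 in BNS and 1.55 in BYS, are bounds from below. These bounds equal the point estimates, because the measured SNS mean was taken as the SNS level. They hold within that normalization only, and median scaling gave a smaller difference for BYS. They also leave out sampling error, and the 95% intervals of the log2 differences started at 0.36 for BNS and 0.41 for BYS. No such bound is given for BYA and BYP, where 2 and 3 of the 4 samples were well above background. The mean over each group was 7.504 ± 0.0551 in SNS, 8.09 ± 0.0936 in BNS, 8.14 ± 0.0671 in BYS, 8.19 ± 0.233 in BYA and 8.18 ± 0.135 in BYP (SD, n = 4 each). The 4 differences share the SNS samples and are not independent of one another. Without BYA 3 the BYA difference was 0.75 (adjusted p = 0.000114), and no other BYA difference of the 6 genes was called with or without that sample. Scaling each sample to its median, in place of quantile normalization, gave 0.45 for BYS (adjusted p = 0.203), and that scaling moved the median of all genes in this comparison to -0.13. The methods' t-test gave adjusted p = 0.0643 for BYA.

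The ratio of the Bche spot to its local background had a median of 2.23 in SNS, against 6.54 for BNS, 7.14 for BYS, 4.13 for BYA and 5.25 for BYP. SNS also had the lowest median signal over background of the 5 conditions, 6.94, and BYA had 7.43. The mean Bche level was highest in BYA, at 8.19, where BYA 1 read 8.54 and was not well above background. Without BYA 1 the Bche difference of BYA from SNS was 0.57. Bche passed the filter only through BNS and BYS, where it was bright, so its presence among the tested genes and its higher level there are not separate facts. Of 30367 probes, 73 were well above background in no SNS sample and in every BNS and BYS sample, as Bche was, and 0 showed the opposite. Sry, a gene of the Y chromosome, which female rats lack, passed the same filter and was well above background in 11 samples. Its mean log2 level was 7.70 in SNS, 7.89 in BNS, 7.85 in BYS, 7.87 in BYA and 7.84 in BYP. It was not called against SNS, and its difference of 0.19 in BNS had an unadjusted limma p under 0.05. Low signals that pass the filter can therefore be unspecific. The parts of slide brightness and of unspecific signal in the Bche difference were not tested. The genes most like Bche over the 20 samples were Tmem260 (Pearson r = 0.962), a transmembrane protein gene, and a transcript named on the array only by an Ensembl identifier (r = 0.961).

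**Figure D4:**
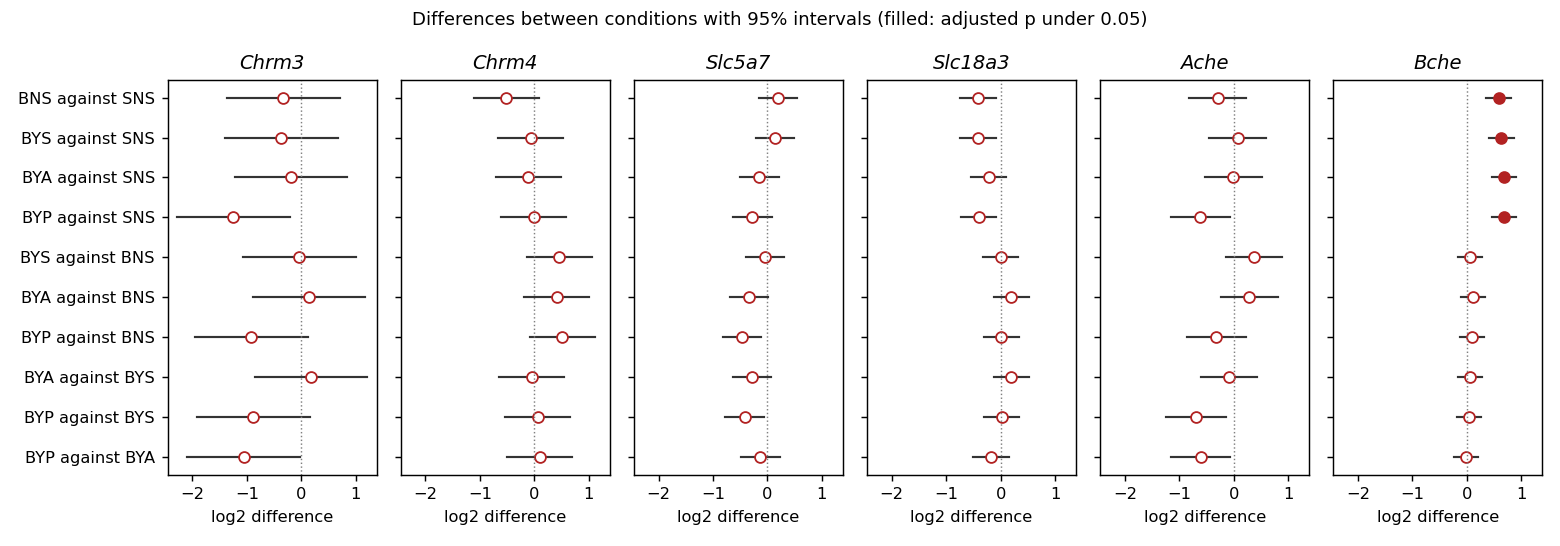
Log2 difference (horizontal axis) between pairs of conditions (rows) for the 6 genes, with 95% intervals from limma and filled points where the adjusted p was under 0.05. The 4 filled points are Bche against SNS, between 0.58 and 0.69, and the intervals of Chrm3 are the widest.

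Between the groups that all had betamethasone, no member was called in any of the 6 comparisons by limma. For spasms (BYS against BNS), 0.0293% of all genes were called, and at an unadjusted p under 0.05 there were 0 members and 6.92% of genes. For ACTH (BYA against BYS), 0% of genes were called, and 0 members and 8.07% of genes had an unadjusted p under 0.05. For PMX53 (BYP against BYS), 0.0351% of genes were called, and the 2 members under the unadjusted level, Ache and Slc5a7, compare with 8.49% of genes. For BYA against BNS, 0.117% of genes were called, with 0 members and 13.1% of genes under the unadjusted level. For BYP against BNS, 1.5% of genes were called, with 1 member, Slc5a7, and 17.8% of genes under it. For BYP against BYA, 0.158% of genes were called, with 2 members, Chrm3 and Ache, and 13.6% of genes under it.

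The 95% intervals of the main fit say how large a difference the spread between these 4 animals a group could have hidden. That holds under quantile normalization only, because the intervals do not cover the choice of normalization. For Bche, BYS differed from BNS by 0.05 log2 units (95% interval -0.17 to 0.28), BYA from BYS by 0.05 (-0.17 to 0.27) and BYP from BYS by 0.04 (-0.18 to 0.26). Median scaling gave -0.35, 0.29 and 0.62 for the same Bche differences, each outside its interval, and called none of them. For Slc18a3 the BYS difference from BNS was 0.00 (-0.33 to 0.33). For Chrm4 the BYS difference from BNS was 0.45 (-0.14 to 1.05), and for Chrm3 it was -0.03 (-1.07 to 1.00). In the main fit the intervals of the tested genes were thus narrowest for Bche and widest for Chrm3. For Bche this depended on the normalization. The standard error of its BYS difference from SNS was 0.105 in the main fit and 0.215 under median scaling. Its SD within a group ran from 0.055 to 0.23 under quantile normalization and from 0.18 to 0.51 under median scaling. The narrow Bche intervals are therefore not read as better measurement.

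Pairs of the 6 genes were compared over the samples, with the dye term removed. The highest correlation between 2 of the 6 genes was that of Chrm3 and Slc18a3 (Pearson r = 0.626, Spearman's rho = 0.608, 20 samples), and Chrm3 with Ache gave r = 0.507 but rho = 0.202 over 19 samples, with the low array of BYP 3 and BYP 4 in both. Chrm4 and Slc5a7 ran opposite (r = -0.495, rho = -0.477). These are descriptions over samples that share conditions, slides and arrays. The genes most like the remaining members were Tcap and an unnamed transcript for Chrm4 (r = 0.894 and 0.926), Cdkn2aip and Gorab for Slc5a7 (r = 0.855 and 0.841), and an Ensembl transcript and an unnamed probe for Slc18a3 (r = 0.858 and 0.853).

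4 further lists give the rest of the cholinergic pathway, and their counts stand beside the 27.1% to 31.3% of all genes called against SNS, in both directions together. Of 16 nicotinic receptor subunits, the ion channels that acetylcholine opens, 8 passed the filter. Against SNS, 2 were higher and 1 lower in BNS, 2 and 2 in BYS, 2 and 2 in BYA, and 3 and 2 in BYP, and 0 were called between the groups given betamethasone. Chrna4 rose by 0.82 in BNS, 0.78 in BYS, 0.97 in BYA and 1.22 in BYP (limma adjusted p = 0.0085, 0.0114, 0.00229 and 0.000405), and Chrna1 rose by between 0.58 and 0.69 (the highest adjusted p was 0.000603). Chrnb2, which pairs with Chrna4 in the common brain receptor, fell by between 0.28 and 0.34 (the highest adjusted p was 0.0334). Chrna4 and Chrnb2 therefore moved in opposite directions against SNS, and Chrnb2 was well above background in 11 samples only.

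Of 25 genes that couple muscarinic receptors to their targets, 24 were tested. Against SNS, 3 were higher and 1 lower in BNS, 3 and 0 in BYS, 2 and 1 in BYA, and 2 and 1 in BYP. Plcb1, the phospholipase C that Gq activates, rose by 0.41 in BNS, 0.55 in BYS, 0.46 in BYA and 0.61 in BYP (limma adjusted p = 0.00368, 0.000353, 0.00148 and 0.000147). Gnai3, a Gi subunit of the kind Chrm4 uses, was lower than SNS by 0.50 in BYA and 0.39 in BYP (adjusted p = 0.00932 and 0.0394).

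Of 14 genes of choline supply and esterase anchoring, 13 were tested, and 3 were higher and 2 lower in BNS than in SNS, 2 and 1 in BYS, 3 and 2 in BYA, and 4 and 4 in BYP. Acly, which makes the cytosolic acetyl-CoA, rose by 0.71 in BNS, 0.75 in BYS, 0.68 in BYA and 0.58 in BYP (limma adjusted p = 0.000364, 0.000222, 0.000494 and 0.00181). Slc44a1, a choline transporter of most cells, rose by 0.89, 1.12, 0.96 and 1.03 (the highest adjusted p was 0.000766), and Slc44a4 fell by between 0.47 and 0.82 (the highest adjusted p was 0.0396). The median log2 difference of this list against SNS lay between -0.06 and 0.08. Of 9 genes of cholinergic neuron development, 6 were tested, and against SNS 0 were higher and 1 lower in BNS, 0 and 0 in BYS, 0 and 0 in BYA, and 1 and 0 in BYP.

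Markers of other cell types are given beside the SNS comparisons as values only. Against SNS, 2 of 4 red blood cell genes tested were higher in each of BNS, BYS and BYA, and their mean log2 level ran from 12.32 to 12.64 in SNS, from 12.41 to 13.62 in those 3 groups and from 12.39 to 12.65 in BYP. Of 6 microglial genes, 0 were higher and 1 lower in each of BNS, BYS and BYA, and 1 higher and 2 lower in BYP. Their mean ran from 10.01 to 10.19 in SNS and from 9.81 to 10.18 elsewhere. Of 6 endothelial and pericyte genes, 1 was higher and 0 lower in BNS, 1 and 3 in BYS, 1 and 3 in BYA, and 0 and 1 in BYP. Of 6 astrocyte genes, 1 was higher in BNS, 1 in BYS, 0 in BYA and 2 in BYP, and 0 were lower. Of 6 choroid plexus genes, 3 were tested, and the calls were Aqp1, 0.22 higher in BNS (limma adjusted p = 0.0386), and Folr1, lower in BYA with a difference of -0.86 (adjusted p = 0.0170). Their mean ran from 9.64 to 10.07 in SNS and from 9.004 to 9.71 elsewhere, and over the 20 samples it ran opposite to Bche (Pearson r = -0.663, Spearman's rho = -0.556), as the microglial mean did (r = -0.651, rho = -0.555). The part of these cell types in the Bche difference was not tested.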

How the data were processed

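Cy3 and Cy5 intensities of 11 Agilent rat arrays were used, extracted by the authors with Feature Extraction (version 10.7.3.1 in the submitters' processing notes, 11.5.1.1 per the file headers). The deposited files hold intensity values: each spot's mean signal, local background and flags, with 44254 spots per array and probes placed on rn4. Scanner settings beyond these are not given in the sources used here. The 82 columns of samples of another series were not used. Channels were assigned to animals by the dye in the labels.

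The mean signals were corrected with normexp (offset 50), log2-transformed and quantile-normalized over the 20 channels in limma 3.58.1 (R 4.3.3, statmod 1.5.0). Spots marked as outliers (1.18%) were left out, which left 787 genes with a missing value. The filter on dim probes kept those with signal well above background, on a share of 0.5 or more of the spots, in every sample of some condition. Of 30367 probes, 18643 (61.4%) were matched by accession to RefSeq names (GRCr8) and the rest kept the array's name. The 19883 probes kept gave 17086 genes, probes of a gene being averaged. A linear model with condition and dye was fitted to all 20 samples, with an F test over 5 conditions and 10 comparisons, moderated and adjusted over all genes by Benjamini-Hochberg at 0.05. The number of arrays limits the precision. Labels do not say which animals were littermates, so p-values measure the spread between these samples. The main fit treats the 2 channels of an array as independent, while the estimated correlation within arrays was 0.37. Its standard errors between conditions may therefore be too small. The highest correlation between 2 samples was 0.995.

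The members and lists were chosen with earlier results of these data known. All 10 members are named. From each other list up to 3 genes were named, those with the smallest p of the F test except some that are not reported here, and for each tested member the 2 genes with the highest Pearson correlation over the samples, dye removed. The fit was tested on simulated data. The alternatives were the scanner software's processed signals, median scaling, loess with Aquantile on the 9 arrays that hold 2 samples of this series, no or a stricter filter, the brightest probe, array, slide or replicate blocks, no dye term, only the 2 conditions compared, the methods' t-test, and leaving out each sample.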

Additional observations from a re-analysis of the deposited data

Results flagged for a closer look

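Within groups of 4, a sample was picked out where its gap to the nearest other sample, over the range of the group, passed Dixon's critical value. Of 29 groups of the 6 tested members, 3 passed, all for Bche and all at the low end, and chance picks out about 1 group in 20. Bche read 7.95 in BNS 4, where the next sample was at 8.12. It read 8.04 in BYS 3, where the next was at 8.16. It read 7.98 in BYP 3, where the next was at 8.23. All 3 samples still lay above the 4 SNS samples.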

How the results depend on the processing

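Of 361 counts of members called under 33 alternatives, 315 were the same as the reported counts. Median scaling called 2 members in the F test, 0 for BYS against SNS, 1 for BYP against BYS and 3 for BYP against SNS. Of all genes it called 2809, 1447, 2820 and 4900 in the same order, where the main fit called 6 for BYP against BYS. Under median scaling Bche in BYS was 0.45 above SNS (limma adjusted p = 0.203). That scaling moved the median of all genes by between -0.17 and 0.15 over the comparisons. With no filter on dim probes 2 members were called in the F test, 2 for BYS and 3 for BYA against SNS. Of all genes 6580, 5689 and 6535 were called there. The added differences were Chrm1 in BYS (-0.33, limma adjusted p = 0.0231), and Chrm1 (-0.30, adjusted p = 0.031) and Chat (-0.24, adjusted p = 0.0201) in BYA. Their probes were not well above background in those groups. Asking for signal well above background in all 20 samples left 11063 genes without Bche and called 0 members in the F test and for BNS, BYS, BYA and BYP against SNS. Array as a random block, with an estimated correlation of 0.37, left the counts of members called as reported. Slide as a random block, with an estimated correlation of -0.13, called 10513 genes in the F test and 8157 for BNS against SNS. Of the members it called 4 in the F test, 2 for BNS and 2 for BYS against SNS, 1 for BYP against BNS and 4 for BYP against SNS. No slide held more than 1 condition, so that block cannot separate slide from condition. A negative correlation within slides also makes the standard errors against SNS smaller, so no conclusion is drawn from its counts. Loess with Aquantile, and no dye term, each called 2 for BNS against SNS, beside 5308 and 4621 of all genes. The methods' t-test called 0 for BYA against SNS after Benjamini-Hochberg adjustment and 5 differences in all before it. Leaving out BYP 3 and BYP 4, chosen after seeing the data, called 2 for BNS and 2 for BYS against SNS. Of all genes it called 4875 and 4640.

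The replicate numbers did not pair the samples (mean correlation of same-numbered deviations 0.0026, from -0.23 to 0.28). The replicate block called 2 members for each of BNS, BYS and BYP against SNS, the added one being Slc18a3. Of all genes it called 5093, 4869 and 5178. Leaving out each sample in turn gave 1 to 2 members called in the F test, 1 to 3 for BNS, 1 to 2 for BYS, 1 to 1 for BYA and 1 to 4 for BYP against SNS, 0 to 1 for BYP against BYS, BNS and BYA, and 0 to 0 for the others. The cause of these changes was not tested. Over the alternatives other than leaving out 1 sample, the Bche difference from SNS lay between 0.56 and 0.80 for BNS, between 0.45 and 0.73 for BYS, between 0.67 and 0.81 for BYA and between 0.68 and 1.07 for BYP. The Bche differences from SNS kept their sign. Of 14 differences of the members with an unadjusted p under 0.05, 4 changed sign when BYP 3 and BYP 4 were left out (Ache in BYP against BYS, SNS and BYA, and Chrm3 in BYP against BYA). The scanner software's flag for signal well above background limits Chrm1, Chrm2, Chrm5 and Chat to bounds, and Bche to a bound in SNS.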
